A study of Caenorhabditis elegans with 24 samples.

Results

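The nervous system of adult *C. elegans* was depleted of RAGA-1, and the RNA of the whole animal was then compared between worms kept with and without auxin. The comparison holds 8 of the 24 samples in the series, chosen by their labels, with 4 libraries of RAGA-1::AID Neuronal animals on auxin and 4 of the same strain on control plates. All 8 carry the degron and EmGFP on endogenous *raga-1* (wbm40, chromosome II) and a single-copy TIR1 under the *rab-3* promoter (wbmIs83, chromosome IV), so the control animals differ from the depleted ones by auxin alone. The other samples gave the background: wild type (N2) and RAGA-1::AID Somatic, where the *eft-3* promoter drives TIR1 in the soma on the same degron allele, each with 4 libraries per treatment. Exposure to auxin, at 0.15 mM, or to the ethanol solvent began on day 1 of adulthood, and about 400 worms per sample were harvested on day 3. Animals with TIR1 and no degron were not analysed here, so an effect of auxin could be compared only with wild type, which carries neither transgene. The RNA measured here does not show how far the RAGA-1 protein was removed.

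RAGA-1 is the worm Rag GTPase that carries the signal of amino acid supply to mTORC1, the kinase complex built around LET-363. Active mTORC1 favours protein synthesis, in part through the S6 kinase RSKS-1, and restrains autophagy. In worms, as in other animals, lower mTORC1 activity is known to lengthen life, and lower activity throughout the body also slows growth and reproduction. The comparison asks which transcripts of the whole animal respond when *raga-1* is depleted in neurons of adults alone.

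Depth ran from 24038984 to 41671106 reads in the 4 libraries without auxin and from 24569154 to 31923750 in those with it, and from 16982857 to 41671106 in the whole series. The values are normalized counts, which are reads per gene divided by 1 size factor per library. The 13150 genes that reached 10 normalized counts in 4 or more libraries were tested with limma on log2 of the normalized count plus 1, a scale that understates the change of genes with few reads. The threshold for a call was 0.01 on p-values adjusted by the Benjamini-Hochberg method, and "rose" or "fell" is used only of called genes. The labels name separate samples and the study collected its replicates on separate days. Defining transcripts of neurons, muscle, intestine, germ line and oocytes were all present, as whole adults would give, and the 10 neuronal markers summed to 8394 to 8637 normalized counts without auxin and 8422 to 8857 with it.

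Transcripts of the targeted pathway did not pass the test. *raga-1* (chromosome II, 11301359 to 11302776 of WBcel235) had 1675, 1747, 1614 and 1664 normalized counts without auxin and 1655, 1652, 1611 and 1552 with it. The groups overlapped (limma's log2 fold change -0.05, adjusted p = 0.64), and since auxin acts on the protein this value is no check of the depletion. The degron and EmGFP lie outside the reference transcripts, and the level without auxin was already lower than in wild type (log2 difference -0.76, adjusted p = 2.3e-10 from limma). *let-363* had 9542 to 10642 counts without auxin and 9595 to 10314 with it, and *rsks-1* had 8168 to 8370.2 and 8175 to 8611. Among all 18 genes of the mTORC1 list, none was called by limma, edgeR or DESeq2. Of them 3 had an unadjusted p under 0.05, as had 1903 of all 13150 genes tested. The list's median log2 fold change was -0.04, beside -0.00078 over all genes tested.

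The number of genes called after depletion in neurons depended on the tool and on the terms of the model. Of 13150 genes, limma called 58 (0.441% of those tested), 46 higher with auxin (0.350%) and 12 lower (0.0913%), while 1903 had an unadjusted p under 0.05. Rises had a median of 0.70 on the log2 scale and falls one of -0.60. Of the rises, 14 were at least 2-fold, no fall was, and 24 of the 58 changes were under 1.5-fold. In each of the 58 genes the auxin and no auxin libraries did not overlap, a separation found in 10.8% of all genes tested. For 49 of them, 45 rises and 4 falls, the 4 depleted libraries also lay outside all 16 control libraries (wild type with and without auxin and both AID strains without it), as in 3.03% of all genes. edgeR on recovered reads called 77 genes, all 58 among them, DESeq2 called 220 (176 higher and 44 lower), 56 of the 58 among them, and limma on the 8 libraries alone called 41 genes, 30 of them among the 58. With the replicate number as a block in the model, limma on all 24 libraries called 231 genes and edgeR 275, each with all 58 among them. Leaving out no auxin replicate 1 gave 27 calls, no auxin replicate 3 gave 32, auxin replicate 3 gave 38 and auxin replicate 4 gave 36. In all, 25 genes, 20 rises and 5 falls, were called whichever of the 8 libraries was left out, and none of the 58 changed sign in an alternative that gave it a value. A filter at 50 normalized counts gave values for 53 of them. Whole-animal RNA cannot tell apart fewer cells of a type and less RNA per cell.

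**Figure D1:**
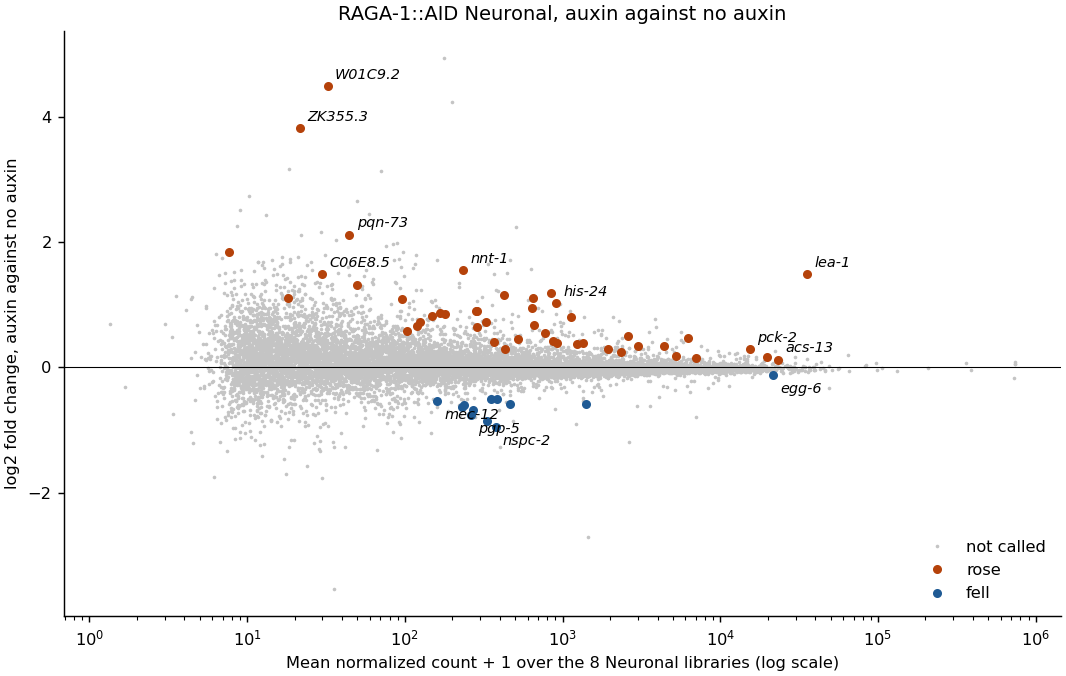
Each point is 1 of the 13150 genes tested, with the mean normalized count plus 1 over the 8 Neuronal libraries on a log axis and the log2 fold change of auxin against no auxin on the vertical axis. The 46 rises (red) and 12 falls (blue) reach from the scarce W01C9.2 at 4.49 to abundant genes that moved little, such as acs-13 at 0.12 and egg-6 at -0.11.

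The smallest adjusted p belonged to *lea-1* (chromosome V, 10011923 to 10028168), which encodes a late embryogenesis abundant protein, a family known for tolerance of drying and osmotic stress. It had 15839, 20532, 18397 and 19656 normalized counts without auxin and 52764, 52809, 47445 and 55394 with it. All 4 depleted libraries lay far above every control library of the series, which reached 21948. The rise was 2.81-fold (log2 fold change 1.49 by limma, with a standard error of 0.13 and adjusted p = 7.4e-07), in an abundant transcript, and wild type showed none on auxin (log2 fold change 0.02). *lea-1* was the only one of 18 tested genes for desiccation and small heat shock proteins to be called. Of the 18, 17 had a log2 fold change above 0, beside 49.7% of all genes tested, and the list's median was 0.63. *sip-1*, a small heat shock protein of oocytes and embryos, had a mean of 60051 without auxin and 68791 with it (adjusted p = 0.015), and *dur-1*, named for its level in dauer larvae, 100.3 and 210.1 (adjusted p = 0.085), and neither was called by limma.

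Of 20 genes tested for gluconeogenesis and the glyoxylate cycle, 3 rose and none fell, with a list median of 0.06. *pck-1* (chromosome III, 62888 to 66260), 1 of the phosphoenolpyruvate carboxykinases that open this pathway, had 1999, 2135, 2295 and 2168 normalized counts without auxin and 2732, 3186, 3101 and 3112 with it. The lowest depleted library stood above the highest control, for a change of 41.1% (log2 fold change 0.50, limma's standard error 0.06, adjusted p = 3.7e-05). Its paralog *pck-2* had 13072, 13763, 13907 and 14356 counts without auxin and 16471, 16994, 16909 and 17107 with it, again with no overlap (log2 fold change 0.29, adjusted p = 0.0033). *gpd-3*, a glyceraldehyde 3-phosphate dehydrogenase that serves glycolysis and its reverse, rose from 3851 ± 234 to 4897 ± 203 (SD, n = 4, with limma's log2 fold change at 0.35 and adjusted p = 0.0037). Log2 fold changes were above 0 for 16 of the 20, beside 49.7% of all genes tested. At an unadjusted limma p under 0.05, 9 were higher and 2 lower, beside 1903 of all 13150 genes in either direction. Among the 4 below 0, none of them called, *gpi-1*, glucose 6-phosphate isomerase, and *gpd-4* had log2 fold changes of -0.09 and -0.07 (adjusted p = 0.13 and 0.24 from limma). *gpd-3* is close in sequence to the other *gpd* genes, so reads may be shared among them. The call of *pck-1* held without any 1 library, whereas *pck-2* was lost in 6 of the 8 leave-outs and *gpd-3* in 5, with adjusted p up to 0.021 and 0.023 without no auxin replicate 1.

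*nnt-1* (chromosome X, 6122311 to 6127554) encodes the mitochondrial transhydrogenase that makes NADPH. It had 88.1, 126, 129.7 and 129 normalized counts without auxin and 312, 376, 345 and 353 with it. The groups were wide apart, and the rise was 2.94-fold (log2 fold change 1.56, limma's standard error 0.23, adjusted p = 5.9e-04). It was the only called gene of 13 in the NADPH and folate list, whose median was 0.00. *adh-1*, an alcohol dehydrogenase, had 279, 255, 244 and 203 counts without auxin and 443, 367, 438 and 369 with it (limma's log2 fold change 0.72, adjusted p = 2.2e-04), without overlap. *mtch-1*, a mitochondrial carrier homolog, showed a small change of 13.3% in a narrow spread, from 4888 ± 116 to 5538 ± 118 (SD, n = 4; adjusted p = 4.8e-04). *glb-1*, a globin, rose from 503 ± 43.9 to 804 ± 82.9 (SD, n = 4, with a log2 fold change of 0.67, adjusted p = 4.1e-04).

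Few genes of lipid handling and autophagy were called. *acs-13*, an acyl-CoA synthetase that activates long-chain fatty acids, had 22134, 22679, 21999 and 22320.2 normalized counts without auxin and 24928, 23915, 24080.5 and 24239 with it. This is a rise of 9.01%, smaller than any other among the 46, and the libraries still did not overlap (adjusted p = 0.0045 from limma). *lipl-2*, a lipase of the lysosomal lipase family, rose from 107 ± 14.3 to 188 ± 15.6 (SD, n = 4, with limma's log2 fold change at 0.82 and adjusted p = 0.0078). These were the 2 called of 51 genes for fatty acid synthesis and storage, with no fall and a median of 0.12. Of the 51, 37 had log2 fold changes above 0, beside 49.7% of all genes tested. At an unadjusted limma p under 0.05, 16 were higher and 1 lower, beside 1903 of all 13150 genes in either direction. DESeq2 called 5 of the list. *plin-1*, the perilipin of lipid droplets, had 12266 to 12968 counts without auxin and 13767 to 14103 with it, which do not overlap but were not called (limma's log2 fold change 0.14, adjusted p = 0.023). *lgg-1*, the Atg8 homolog that coats autophagosomes, rose from 6639 ± 105 to 7369.8 ± 125 (adjusted p = 0.0033), and was alone among 53 genes for autophagy and lysosome. *spg-20*, the worm spartin, rose from 439 ± 37.4 to 599.6 ± 29.8 (log2 fold change 0.45, adjusted p = 2.2e-04). The calls of *acs-13* and *lgg-1* were lost without no auxin replicate 1 (adjusted p = 0.021 and 0.019), among 6 and 4 of the leave-outs, and *lipl-2* was lost in all 8 (up to 0.031 without no auxin replicate 4). The *spg-20* call held in all 8.

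The *pud*, transthyretin-related and saposin-like families each had 1 or 2 members that rose. *pud-4* (chromosome V, 2326678 to 2327282), of a family named for its abundance in animals with low insulin signalling, had 440.4, 586, 590.2 and 436 normalized counts without auxin and 1205, 1233, 1324 and 929 with it. All depleted libraries were above all controls (log2 fold change 1.19, limma's standard error 0.15, adjusted p = 1.2e-04). The other tested members, *pud-3*, *pud-2.2* and *pud-1.2*, had log2 fold changes of 1.02, 0.77 and 0.74 and were not called (adjusted p = 0.056, 0.15 and 0.32). Of 46 transthyretin-related genes, *ttr-5* rose from 314 ± 17.3 to 415 ± 10.7 and *ttr-23* from 128 ± 11.6 to 231 ± 11.1 (SD, n = 4), none fell, and the median was 0.12. Of 19 saposin-like genes, *spp-2* rose from 432 ± 70.1 to 836 ± 120.1 and *spp-5*, an antimicrobial protein, from 5265 ± 572 to 7281 ± 380.0 (SD, n = 4), none fell, and the median was 0.22. Log2 fold changes were above 0 for 37 of the 46 and 16 of the 19, beside 49.7% of all genes tested. At an unadjusted limma p under 0.05, 16 and 5 were higher and 0 and 0 lower, beside 1903 of all 13150 genes in either direction. The calls of *pud-4* and *ttr-5* held without any 1 library. Those of *ttr-23* were lost in all 8 leave-outs (adjusted p up to 0.038 without auxin replicate 2), of *spp-5* in 6 (up to 0.023 without no auxin replicate 2) and of *spp-2* in 3 (up to 0.012 without no auxin replicate 3). Members of the *pud* and *ttr* families are similar in sequence, so their reads may be split uncertainly.

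Linker histones, which bind the DNA between nucleosomes, changed unequally. *his-24* (chromosome X, 14490094 to 14491119) had 484, 599, 618 and 690.3 normalized counts without auxin and 1057, 1243, 1086 and 1490.0 with it. *hil-3* (chromosome X, 8159169 to 8160084) had 172, 186, 203 and 222 without auxin and 302, 363, 364 and 449 with it. Neither gene's groups overlapped, and the log2 fold changes were 1.02 and 0.91 (adjusted p = 0.0054 and 0.0062 from limma). They were the 2 called members of 9 tested. The abundant *hil-4* and *hil-5*, at means of 12685 and 9634 without auxin, had log2 fold changes of -0.10 and -0.07 and were not called. *his-24* was lost in 6 and *hil-3* in 7 of the leave-outs, both with adjusted p = 0.033 without no auxin replicate 1.

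**Figure D2:**
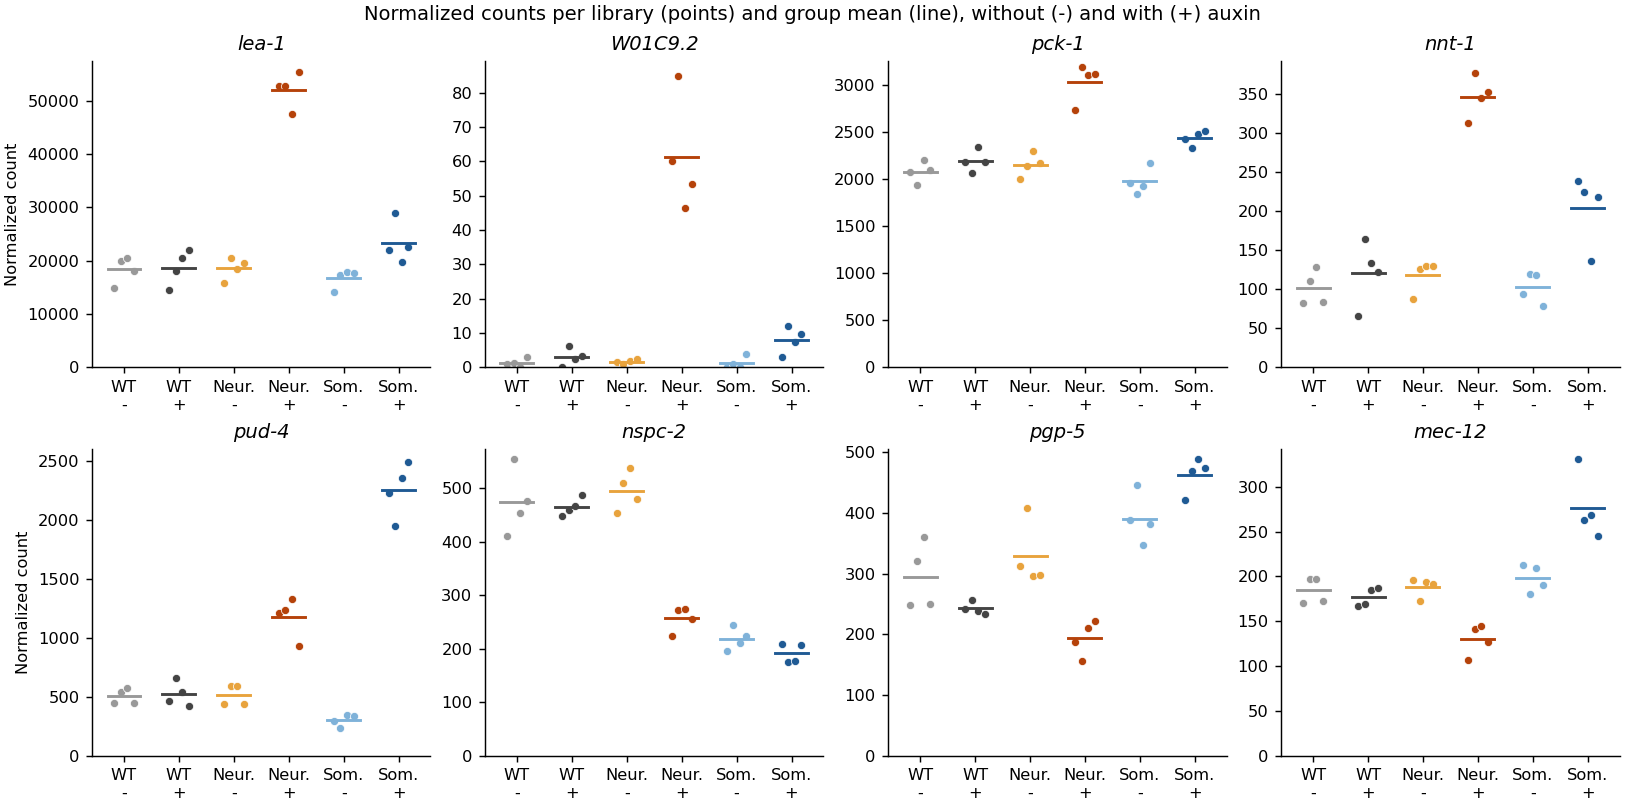
Normalized counts (vertical axes, from 0) of 8 genes in each of the 24 libraries, as points, with the group means as lines, for wild type (WT), RAGA-1::AID Neuronal (Neur.) and RAGA-1::AID Somatic (Som.) without (-) and with (+) auxin. In the Neuronal strain lea-1 stands at 47445 to 55394 with auxin against 15839 to 20532 without, and nspc-2 at 224 to 274 against 453 to 537.

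The steepest rises were in scarce transcripts. W01C9.2 (chromosome II, 8536360 to 8538652) had 1.6, 1.1, 1.74 and 2.47 normalized counts without auxin and 60.03, 84.9, 46.3 and 53.3 with it. It reached at most 6.19 in any of the 16 control libraries, so it was close to silent without neuronal depletion (log2 fold change 4.49, limma's standard error 0.57, adjusted p = 1.2e-04). The next gene on the chromosome, *pqn-73*, which begins 2060 bp beyond it and is named for a glutamine and asparagine-rich domain, moved with it. It had 16.8, 9.94, 16.5 and 18.5 counts without auxin and 59.1, 57.96, 61.1 and 108 with it (log2 fold change 2.12, adjusted p = 0.0093). ZK355.3 (chromosome II, 2927017 to 2927633) had 0, 3.31, 3.48 and 0.618 counts without auxin and 12.01, 75.1, 36.5 and 33.02 with it (log2 fold change 3.82, adjusted p = 0.0028). C06E8.5 rose from 14.4 ± 2.18 to 43.1 ± 11.3 and the chemoreceptor gene *str-264* from 2.55 ± 1.58 to 10.8 ± 2.45 (SD, n = 4; adjusted p = 0.0074 and 0.0031 from limma). Of these 5 genes W01C9.2 was called in every leave-out, whereas *pqn-73* was lost in all 8 (adjusted p up to 0.041 without auxin replicate 4), C06E8.5 in 7 (0.034 without auxin replicate 3), ZK355.3 in 5 and *str-264* in 4 (both 0.019 without no auxin replicate 1). DESeq2 did not call *str-264* (adjusted p = 0.012).

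Many of the remaining rises were genes known by sequence name only. Y54G2A.36 (chromosome IV, 2897694 to 2901651) had 249.9, 330.2, 224 and 240.4 normalized counts without auxin and 745, 535, 528 and 528 with it (limma's log2 fold change 1.16, adjusted p = 1.2e-04). T12D8.5 rose 2.17-fold, from 409.8 ± 44.6 to 891 ± 118 (SD, n = 4), and the scarcer F58B4.3 rose 2.49-fold, from a mean of 27.5 to 69.6. M01F1.4, Y39G10AR.11 and Y48G1A.2 showed narrow, smaller rises of 26.5%, 30.8% and 23.2%. *msi-1*, the worm Musashi RNA-binding protein of neurons, rose from 1076 ± 26.04 to 1399.8 ± 70.6 (SD, n = 4, with limma's log2 fold change at 0.38 and adjusted p = 4.8e-04). These 7, with R03H10.1 and F47B8.2, were called without any 1 library. ZK637.12, which lies 947 bp beyond *glb-1*, rose from 220.2 ± 19.1 to 349 ± 53.9 (adjusted p = 0.0022, lost in 4 leave-outs, up to 0.016 without no auxin replicate 1). *ges-1*, the gut esterase used as a marker of the intestine, rose from 627 ± 85.3 to 912 ± 104.04 (limma's log2 fold change 0.54, adjusted p = 0.0078), but its call was lost in 7 leave-outs (up to 0.042 without auxin replicate 2). It was the only called gene of 11 intestinal markers, whose median was -0.08 and whose sum was 29078 to 33054 without auxin and 31403 to 36772 with it. The other rises, between 19.2% and 123% by group mean, were ZK632.10, Y15E3A.5, F55G1.7, *unk-1*, Y51F10.7, K08E4.2, *exc-13*, W03G11.4, *scd-1* and the pseudogene F21D9.5, and each lost its call in at least 1 leave-out (highest adjusted p = 0.051, *scd-1* without no auxin replicate 1).

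Of the 12 falls, 7 were *nspc* genes, a family of small nematode peptides encoded on chromosome X. *nspc-2* (8535469 to 8535819) had 453, 509, 537 and 479.6 normalized counts without auxin and 224, 272, 274 and 256 with it. The groups were far apart, and the group mean fell by 48.2% (log2 fold change -0.95, limma's standard error 0.09, adjusted p = 3.6e-06). *nspc-1*, its neighbour 363 bp before it, had 372, 443, 475 and 409 counts without auxin and 203, 269, 268 and 208 with it (log2 fold change -0.85, adjusted p = 1.2e-04). *nspc-12*, *nspc-4*, *nspc-13*, *nspc-20* and *nspc-7* fell too, by log2 fold changes of -0.58, -0.68, -0.51, -0.50 and -0.61. All 15 tested members had negative values, with a median of -0.59, and 14 had an unadjusted p under 0.05. The exception, *nspc-5*, went from 89.6 ± 4.99 to 54.7 ± 14.4 (SD, n = 4) but scattered in the Somatic strain, at 18.6 ± 22.8 without auxin, and the fit shares 1 spread over all groups (log2 fold change -0.74, limma's standard error 0.83, adjusted p = 0.75).

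The family lies in 3 stretches of chromosome X, and the falls were in each. In the first (8534672 to 8542283), 4 of 5 tested genes fell with a median of -0.74, in the second (12342946 to 12359057) 2 of 5 with -0.51, and in the third (14523575 to 14530207) 1 of 5 with -0.59. Summed over the family, the libraries held 3639.7, 4178, 4390.1 and 4049.8 normalized counts without auxin and 2483, 2922, 2800.1 and 2546 with it. Wild type held 3872 to 4294 with or without auxin, so the 4 depleted libraries stood below all 8 of those and below their own controls. RAGA-1::AID Somatic animals held 2023 to 2202 without auxin, lower than the depleted neuronal animals, and 2614 to 2832 with it. The paper reports a low level of degradation of the tagged protein in the Somatic strain even without auxin. Whether that bears on the *nspc* level was not tested. All 7 called *nspc* genes were also lower in the Somatic strain than in wild type without auxin (log2 differences of -0.73 to -1.16, each called by limma), and a rule that removes every gene called in a baseline comparison takes out these 7 and leaves 51 genes, 46 rises and 5 falls. The calls of *nspc-1*, *nspc-2*, *nspc-4* and *nspc-12* held without any 1 library. Those of *nspc-13* and *nspc-20* were lost in 4 leave-outs each (adjusted p = 0.015 without no auxin replicate 3) and of *nspc-7* in 7 (up to 0.031 without auxin replicate 4). The copies are alike in sequence, so reads may be shared among members and the 7 calls are not independent of each other.

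**Figure D3:**
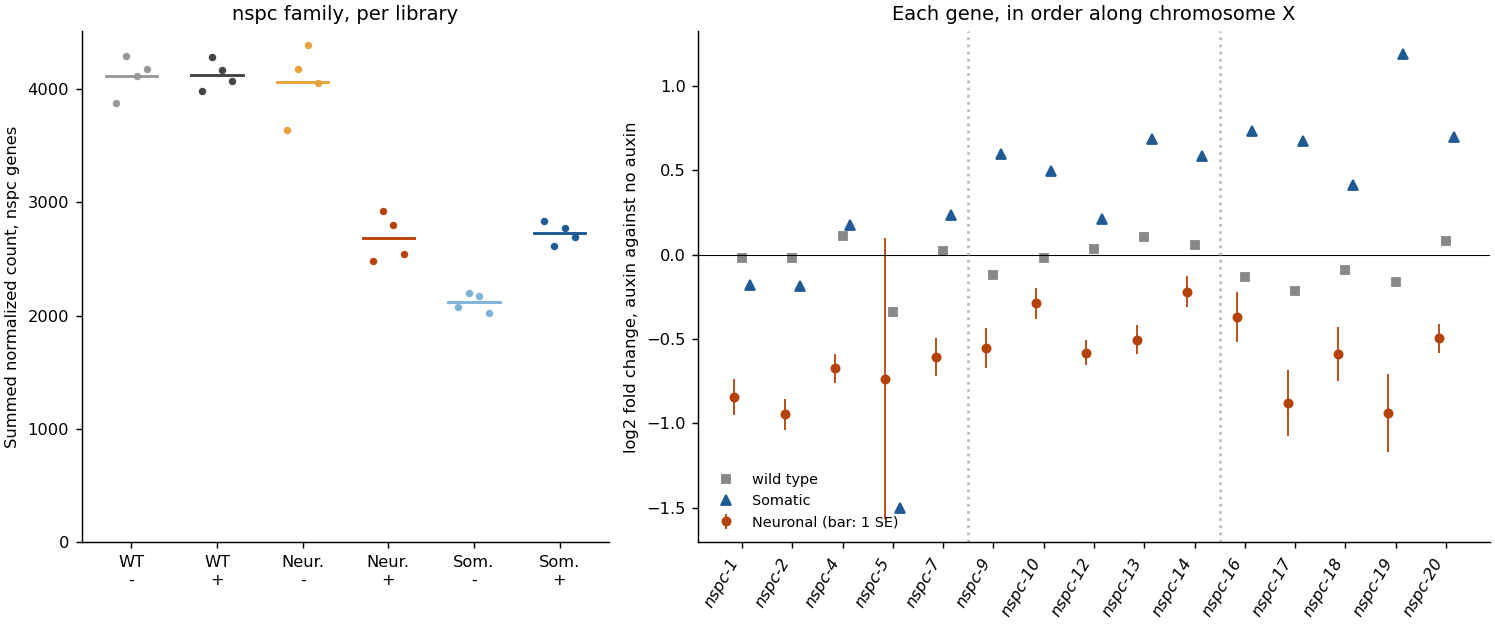
Left, summed normalized counts of the nspc genes per library (points, vertical axis from 0) and group mean (line). Right, log2 fold change of auxin against no auxin for the 15 tested genes in their order along chromosome X, with dotted lines between the 3 stretches. The Neuronal values (red, bars 1 standard error) lie between -0.22 and -0.95, and the Neuronal sums with auxin (2483 to 2922) lie below those of wild type (3872 to 4294).

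The other falls were few and unrelated by family. *pgp-5* (chromosome X, 10854216 to 10859297), a P-glycoprotein transporter of the ABC class, had 313, 409, 297 and 297 normalized counts without auxin and 187, 156, 211 and 223 with it (log2 fold change -0.76, limma's standard error 0.12, adjusted p = 0.0019). The highest depleted library was below the lowest control, and the call held without any 1 library. *clec-190*, a C-type lectin, fell from 1685 ± 85.9 to 1132 ± 187, *txt-11* from 277 ± 17.7 to 179 ± 15.4 and *egg-6*, an extracellular leucine-rich repeat protein, from 22564 ± 487 to 20857 ± 506 (SD, n = 4). Their adjusted p-values were 0.0033, 0.0053 and 0.0070 from limma. *clec-190* was lost in 5 leave-outs (up to 0.019 without no auxin replicate 1), *txt-11* in 6 (0.023 without no auxin replicate 4) and *egg-6* in 7 (0.033 without auxin replicate 3). Of 86 C-type lectin genes and 161 detoxification genes tested, *clec-190* and *pgp-5* were the only calls, with list medians of 0.09 and 0.07.

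Among transcripts of the nervous system itself, *mec-12* fell, while *msi-1* and the scarce chemoreceptor gene *str-264* rose as given above. *mec-12* (chromosome III, 3131574 to 3139234), an alpha-tubulin of the touch receptor neurons, had 196, 172, 194 and 192 normalized counts without auxin and 107, 141, 145 and 127 with it. All 4 depleted libraries were below every control library of the series, the lowest of which was 167 (log2 fold change -0.54, limma's standard error 0.10, adjusted p = 0.0055). Its call was lost in 5 leave-outs, namely without no auxin replicate 1, 3 or 4 or auxin replicate 1 or 4 (adjusted p up to 0.028 without no auxin replicate 1). Of the other 14 touch neuron genes tested, none was called. Over the 15 tested, 8 had log2 fold changes above 0 and 7 below, with a median of 0.01. *mec-17*, which acetylates that tubulin, and *mec-7*, a beta-tubulin of the same cells, went from 71.2 to 51.4 and from 95.4 to 75.2 (adjusted p = 0.067 and 0.28). Of 109 neuropeptide genes, 52 neuropeptide receptors and 29 genes of synaptic release, limma called none. At an unadjusted p under 0.05 there were 6 higher and 9 lower, 5 and 1, and 4 and 2, beside 1903 of all 13150 genes in either direction. For these lists edgeR called 0, 0 and 0 and DESeq2 0, 1 and 2. Median log2 fold changes were -0.05, 0.06 and 0.01. The strongest value among neuropeptides was that of *ins-30*, an insulin-like peptide, at 24.8 without auxin and 10.96 with it (adjusted p = 0.029). None of the 10 neuronal markers was called by limma, edgeR or DESeq2, with 1 at an unadjusted p under 0.05 and a median near 0.

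Several genes that the study discusses, some of them neuronal, missed the threshold here. *cat-4*, GTP cyclohydrolase, needed to make dopamine and serotonin, had 596, 529, 575 and 641 normalized counts without auxin and 701, 795, 792 and 709 with it (limma's log2 fold change 0.36, adjusted p = 0.026). *frpr-5*, a receptor of the FMRFamide peptide class, had 31.2, 39.8, 46.1 and 45.1 without auxin and 85.0, 72.7, 78.8 and 75.6 with it (log2 fold change 0.94, adjusted p = 0.035). In both, the groups did not overlap. *tom-1*, tomosyn, an inhibitor of synaptic vesicle release, and *cab-1*, a neuroendocrine protein, had log2 fold changes of 0.46 and 0.16 (adjusted p = 0.031 and 0.041), *gsnl-1*, gelsolin-like, 0.40 (0.015) and *myo-2*, the pharyngeal myosin, 0.46 (0.028). *pha-4*, the FoxA factor, and the splicing factor *sfa-1* had 0.40 and 0.06 (0.21 and 0.68). With the replicate number as a block, limma called *tom-1*, *cab-1*, *gsnl-1* and *myo-2*. DESeq2 on recovered reads called *cat-4*, *frpr-5*, *cab-1*, *tom-1*, *plin-1*, *gsnl-1* and *myo-2*. These genes were chosen with earlier results of the same samples in view, so they are no independent evidence of direction. Pharyngeal muscle markers, *myo-2* among them, summed to 1658 to 2159.8 without auxin and 2159.3 to 2766 with it. All 7 tested had log2 fold changes above 0, beside 49.7% of all genes, with no call by limma, none by edgeR and 2 by DESeq2.

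Of 75 cytosolic ribosomal protein genes, limma, edgeR and DESeq2 called none and none had an unadjusted p under 0.05, with log2 fold changes between -0.06 and 0.06. No gene of 24 for DNA replication was called by any of the tools, with 2 at an unadjusted p under 0.05. Of 20 meiosis genes and 34 oocyte RNA regulators limma called none, 7 in each list had an unadjusted p under 0.05, edgeR called 1 and 1 and DESeq2 2 and 4. In these lists 4 of 20 and 3 of 34 had values above 0, beside 49.7% of all genes tested, with medians of -0.04 and -0.05. The 10 oocyte markers summed to 225579 to 227676 normalized counts without auxin and 217382 to 223421 with it, which do not overlap, while wild type without auxin spanned 220309 to 231887. The 10 germ line markers summed to 99336 to 102442 and 96233 to 99351. The part of these levels in the other results was not tested. Of 15 eggshell genes, *cpg-3*, a chondroitin proteoglycan, rose by 12.1% from 18757 ± 250.4 to 21026 ± 547 (SD, n = 4; adjusted p = 8.4e-04 from limma, held without any 1 library) and *egg-6* fell as above.

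**Figure D4:**
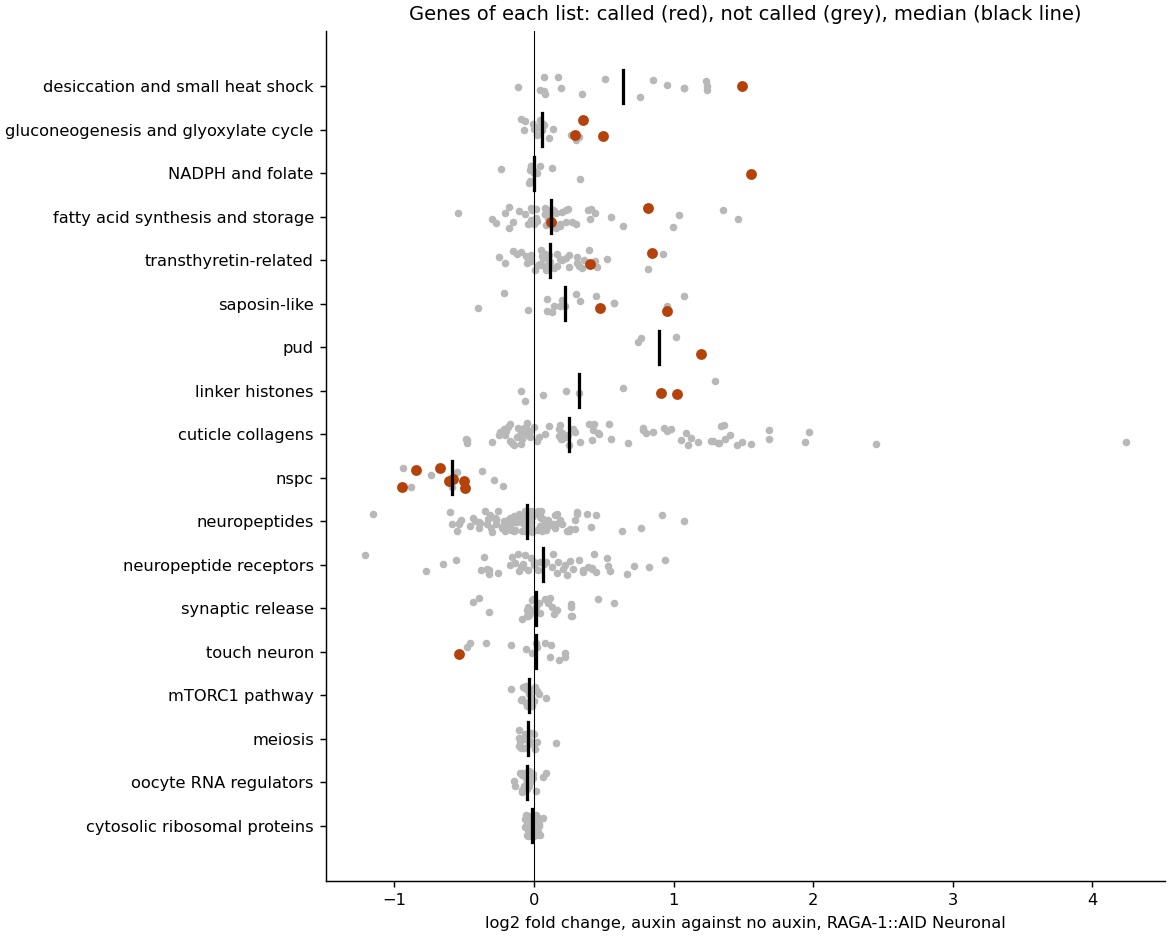
Each point is 1 tested gene of the list named at left, placed by its log2 fold change with auxin in RAGA-1::AID Neuronal (horizontal axis), red where called and grey where not, with the list's median as a black line. The nspc genes all lie below 0 (median -0.59), the pud genes all above it (0.89), and the ribosomal protein genes within -0.06 to 0.06.

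In wild type, auxin alone changed no gene by limma or edgeR (303 at an unadjusted p under 0.05) and 1 by DESeq2, which was none of the 58. The median wild type log2 fold change was 0.04 over the 46 rises and 0.02 over the 12 falls. The largest single one was 1.08, for ZK355.3, at few counts. A test of the difference between the responses called 2 genes of all tested (0.0152%), *lea-1* (difference 1.47, adjusted p = 4.8e-04) and *nspc-2* (-0.93, adjusted p = 0.0019), and both held without any 1 Neuronal library (up to 0.0086 for *nspc-2* without no auxin replicate 3). For the other 56 genes the response was not shown to differ from wild type after adjustment. Each of the 58 had an unadjusted p under 0.05 for this difference in limma, but they were chosen by 1 part of it. Over all genes, DESeq2 called 21 such differences and limma with the replicate number as a block 19.

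Against RAGA-1::AID Somatic animals, the response to auxin differed for 29 of the 58 genes, where 11.2% of all genes tested did. The 58 were chosen by 1 part of this difference, so a larger share among them is partly built in and is no test. Among the rises, 9 were stronger after neuronal depletion. *lea-1* rose by 1.49 against 0.47 on the log2 scale (difference 1.02, adjusted p = 4.0e-04 from limma). M01F1.4 moved by 0.34 against -0.08, C06E8.5 by 1.49 against -0.82 and ZK355.3 by 3.82 against -1.06. *acs-13*, *cpg-3*, *spg-20*, F47B8.2 and ZK632.10 made up the rest, of which *cpg-3*, *spg-20*, F47B8.2 and ZK632.10 lost this call in 3, 5, 2 and 7 leave-outs (adjusted p up to 0.013, 0.017, 0.013 and 0.018 without no auxin replicate 3 for *cpg-3* and *spg-20*, auxin replicate 2 for F47B8.2 and auxin replicate 4 for ZK632.10). The response was weaker than the somatic one for 8 rises. *pud-4* went up by 1.19 against 2.91, *his-24* by 1.02 against 2.28, *hil-3* by 0.91 against 1.98, *spp-5* by 0.47 against 1.22 and *ttr-5* by 0.40 against 0.92, with *spp-2* (lost in 6 leave-outs, up to 0.024 without no auxin replicate 4), Y39G10AR.11 and *lgg-1* besides. For *pck-1*, *pck-2*, *gpd-3*, *nnt-1*, *adh-1* and W01C9.2 the difference was not called (adjusted p = 0.077, 0.96, 0.77, 0.21, 0.10 and 0.045).

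All 7 called *nspc* genes, *pgp-5*, *txt-11* and *mec-12* had a more negative response than in the Somatic strain, and *clec-190* and *egg-6* a less negative one. For *nspc* the strains started from unequal levels. Without auxin the family's sums were 2023 to 2202 in Somatic and 3639.7 to 4390.1 in Neuronal animals. With auxin they overlapped, at 2614 to 2832 and 2483 to 2922. A low *nspc* level was thus not particular to neuronal depletion, since Somatic animals with and without auxin also lay below wild type (3872 to 4294). The cause of the low level in either strain was not tested. *mec-12* moved by -0.54 in neuronal and 0.47 in somatic animals (adjusted p = 5.1e-05 for the difference, from limma), and *pgp-5* by -0.76 and 0.25 (adjusted p = 4.0e-04), the latter not called in somatic animals (adjusted p = 0.10). Neuropeptide genes gave a further contrast. In somatic animals 65 of 109 were called, all of them higher, with a median of 0.64, beside 35.6% of all genes called there in either direction, and the response differed between the strains for 28 of them. Likewise 26 of 34 oocyte RNA regulators fell in somatic animals, and the response differed for 11.

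**Figure D5:**
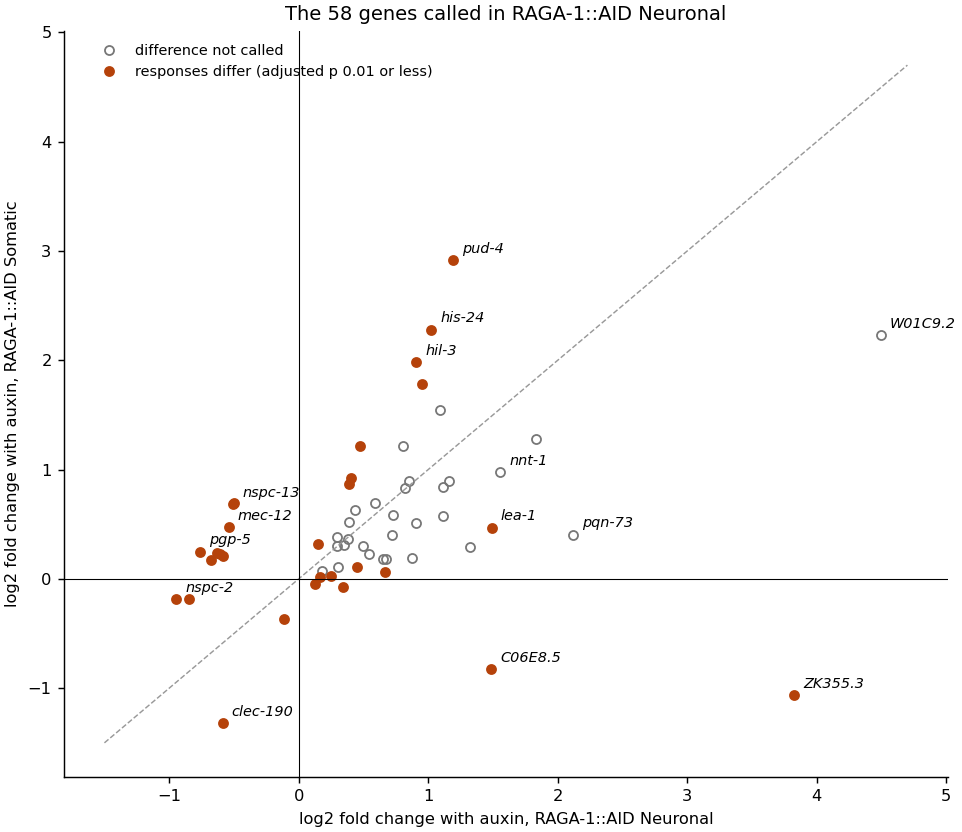
The 58 genes called in RAGA-1::AID Neuronal, by their log2 fold change with auxin there (horizontal axis) and in RAGA-1::AID Somatic (vertical axis), each against that strain's own libraries without auxin. Red points are the 29 genes whose responses differed between the strains, and the dashed line marks equal responses. mec-12 lies at -0.54 and 0.47, and lea-1 at 1.49 and 0.47.

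By position, 18 of the 58 genes (31.03%) lie on chromosome X, which holds 14.2% of the genes tested. They were 10 rises and 8 falls, and 7 of the falls were the *nspc* genes. Chromosome V held 12, chromosome III 10, chromosome I 8, chromosome II 6 and chromosome IV 4. Besides the *nspc* stretches, called genes within 20000 bp of each other were W01C9.2 and *pqn-73*, *glb-1* and ZK637.12, and *spp-2* and *spp-5*, and in each of these pairs both rose.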

How the data were processed

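Per the labels and the study's methods, poly(A) RNA was sequenced as paired 50 bp ends. The authors quantified it with Salmon 1.4.0 on WBcel235, summed it to genes with tximport and normalized it in DESeq2 1.34.0. The deposited values are a signal: the authors scaled each library's gene counts by its own size factor. Salmon's strand setting is not given in the sources used here, which leaves values of overlapping or antisense genes uncertain. Whole reads were recovered from the deposited signal (within 0.01 of a read) and used as counts by edgeR and DESeq2 only. In 1 Somatic library the step was too near 1 for that to be checked.

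log2 (value + 1) was fitted in limma 3.58.1 (R 4.3.3) with a mean-variance trend and a mean for each of 6 groups over all 24 libraries, for 13150 of 21982 genes. P-values were adjusted over all genes tested. On simulated counts for 13021 genes the fit recovered 36%, 60%, 84% and 90% of 50 genes changed 1.25, 1.5, 2 and 4-fold in this comparison, and called 2 of 12821 unchanged genes. edgeR 4.0.16 and DESeq2 1.42.0 were alternatives, besides those in the closing section. Alternatives were fixed except for a term for replicates 1 and 4 against 2 and 3, added after seeing the data. Gene names came from Ensembl 115 (19793), otherwise from sequence names (2103) or IDs (86), and coordinates are those of WBcel235.

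The members and lists were chosen with earlier results of these data known. Named genes were *raga-1*, *let-363*, *rsks-1*, the 15 rises and 10 falls of smallest adjusted p (mean of at least 50, same direction in 4 of 4 same-numbered pairs), called list members, and 10 genes the study discusses. Others were named after their values were seen. Python 3.11.15 and matplotlib 3.10.9 drew the figures. Promoter motifs were not analysed here.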

Additional observations from a re-analysis of the deposited data

Results flagged for a closer look

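Among 140 groups of 4 libraries (70 named genes, with and without auxin), 10 held 1 library far from the other 3, where chance gives about 1 in 20. Without auxin these were *nnt-1* at 88.1 normalized counts in replicate 1, *pgp-5* at 409 in replicate 2, *clec-190* at 1557 in replicate 4 and *lgg-1* at 6794 in replicate 4. With auxin they were Y54G2A.36 at 745 in replicate 1, *gsnl-1* at 215 and F47B8.2 at 162 in replicate 2, and *rsks-1* at 8175, *txt-11* at 202 and *pqn-73* at 108 in replicate 4.

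The response to auxin differed from that of wild type for *lea-1* (log2 difference 1.47) and *nspc-2* (-0.93), by limma's test of the difference at an adjusted p of 0.01 or less. By the same test 32 named genes responded differently from RAGA-1::AID Somatic, and every value here is the neuronal minus the somatic log2 fold change. It was above 0 for ZK355.3 (4.89), C06E8.5 (2.31), *lea-1* (1.02), *clec-190* (0.73), F47B8.2 (0.60), M01F1.4 (0.42), *spg-20* (0.35), *egg-6* (0.25), ZK632.10 (0.23), *acs-13* (0.17) and *cpg-3* (0.15). It was below 0 for the *nspc* genes *nspc-13* (-1.19), *nspc-20* (-1.19), *nspc-4* (-0.85), *nspc-7* (-0.84), *nspc-12* (-0.79), *nspc-2* (-0.76) and *nspc-1* (-0.67). It was also below 0 for *pud-4* (-1.72), *pha-4* (-1.32), *his-24* (-1.26), *hil-3* (-1.07), *mec-12* (-1.02), *pgp-5* (-1.01), *txt-11* (-0.87), *spp-2* (-0.83), *spp-5* (-0.75), *cat-4* (-0.53), *ttr-5* (-0.52), Y39G10AR.11 (-0.49), *cab-1* (-0.31) and *lgg-1* (-0.17).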

How the results depend on the processing

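The 58 calls of the Neuronal comparison became 27 to 56 when 1 library was left out, 9 with replicates 1 and 4 alone, 8 with replicates 2 and 3 alone, 34 at a fold of at least 1.5, 226 at an adjusted p of 0.05, 220 in DESeq2 and 150 with a term for replicates 1 and 4 against 2 and 3. The 2 genes that differed from wild type became 4 at a pseudocount of 4, 21 in DESeq2, 6 with that term, 17 at an adjusted p of 0.05, 0 with either pair of replicates alone and 2 to 4 with 1 library left out. The 1477 genes that differed from Somatic became 434 and 128 with those pairs alone, 3001 at an adjusted p of 0.05, 573 at a fold of at least 1.5 and 1076 to 1266 with 1 library left out. The cause of these shifts was not tested, beyond the smaller number of libraries in some of them. Replicate numbers were not taken to pair the samples, since the deviations of same-numbered libraries correlated by 0.093 to 0.34 and 7 of 8 libraries correlated best with their own number, short of the rule that every pair exceed 0.1. With the replicate number as a block the counts were 231, 19 and 2251, *tom-1*, *cab-1*, *gsnl-1* and *myo-2* were called as well (adjusted p = 0.0080, 0.0087, 0.0063 and 2.5e-04 from limma), in edgeR with the block 275 and 19, and in the 8 libraries alone with the block 349. *let-363*, not called, turned to log2 fold changes of 0.012 with quantile normalization and 0.0078 with replicates 2 and 3 alone, and ranged from -0.025 to 0.027 as single libraries were left out, above 0 for no auxin replicate 1 and for auxin replicate 4 (0.0099). No other named gene changed sign.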

Other observations

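Large changes also occurred below the threshold. In 16 genes the log2 fold change was at least 2 in size without a call by limma, 14 higher and 2 lower, and in several of them auxin replicate 1 stood apart from the other depleted libraries. D1086.9 had 0.801, 15.5, 6.09 and 4.33 normalized counts without auxin and 14.8, 771, 397 and 206 with it (log2 fold change 4.94, adjusted p = 0.023). C11H1.7 had 6.41, 7.73, 13.1 and 12.4 without auxin and 14.8, 165, 129 and 211 with it (adjusted p = 0.015). H39E23.3 had 67.3, 176, 232 and 131 without auxin and 169, 1682, 799 and 799.9 with it (adjusted p = 0.087). In all 3, auxin replicate 1 lay among or next to the controls. ZK355.8, named for the same clone as the called ZK355.3, had 0.801, 5.52, 0.871 and 3.09 without auxin and 8.31, 57.96, 31.5 and 31.95 with it (adjusted p = 0.024).

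Other genes split by library and not by treatment. Y116A8C.30 had 3932, 2769.8, 3496 and 271 normalized counts without auxin and 284, 279, 272 and 258 with it, so that no auxin replicate 4 stood with the depleted animals (adjusted p = 0.20 from limma). *igdb-1* had 0, 107, 168 and 0 without auxin and was at 0 in all 4 libraries with it (adjusted p = 0.44).

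No cuticle collagen was called by limma. Of 83 tested, 56 had log2 fold changes above 0, beside 49.7% of all genes, with a median of 0.25. At an unadjusted p under 0.05 there were 30 higher and 1 lower, beside 1903 of all 13150 genes in either direction. For the collagens edgeR called 0 and DESeq2 called 6. Their summed normalized counts went the other way, 133191 to 149894 without auxin and 123370 to 143285 with it, and the groups overlapped. *sqt-3* had a mean of 189 without auxin and 539.9 with it (adjusted p = 0.037). Of 27 *sdz* genes, a family named from SKN-1-dependent expression in embryos, 21 were above 0 with a median of 0.39 and 10 rises at an unadjusted p under 0.05, with 0 called by limma, edgeR or DESeq2. The 8 early embryo markers tested summed to 4465 to 4928 without auxin and 4334 to 4747 with it.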
